A study of Rattus norvegicus with 6 samples.

Results

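Small leucine-rich proteoglycans are secreted proteins whose core is a chain of leucine-rich repeats, most of them carrying sugar chains, and they sit on collagen fibrils in the extracellular matrix. In rat left atrium 8 genes of the family were followed, namely Aspn, Dcn, Bgn, Lum, Fmod, Ogn, Prelp and Omd. Each of the 8 members has 1 probe set that carries its symbol alone on the array, each of these passed the signal filter described next, and they are 8 of the 11237 genes that could be compared. Members were chosen by name for their family, with earlier results of these arrays known, and the study lists Aspn among its changed genes from these same arrays, so its call is not independent evidence.

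The arrays hold RNA from the left atria of 6 adult male Sprague-Dawley rats, with 1 array per rat. In 3 rats the atria were paced rapidly (RAP, cycle length 70 ms) and in 3 rats near the normal rate (Con, 140 ms), both for 48 h, and all drank atenolol, a beta blocker that slows conduction to the ventricles. The ventricular rate was similar in both groups, and control rats, being paced too, are no unpaced baseline. Each RAP rat was paced at the same time as a control rat in the adjacent cage, and the study used the 3 pairs whose RNA was of high quality. Arrays with the same replicate number were taken as pairs 1 to 3, since the sample titles name no pair. Each rat is 1 array. In the paired fit, p-values measure the spread of the RAP minus Con difference between pairs, partly borrowed from all probe sets. In fits that leave the pairs out, they measure the spread between rats. Signals are on a log2 scale, on which 1 unit is a doubling of the signal. They can be set against each other between arrays for 1 gene but not between genes, since probes differ in brightness. A gene was kept where any array exceeded a log2 signal of 5. All changes are RAP minus Con on the log2 scale.

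The family works at the surface of collagen fibrils. Decorin (Dcn) and biglycan (Bgn), which carry chondroitin or dermatan sulfate chains, limit fibril thickness and bind TGF-β, and asporin (Aspn), their closest relative, binds collagen and TGF-β without such chains. Lumican (Lum), fibromodulin (Fmod), PRELP (Prelp) and osteomodulin (Omd) belong to the class that can carry keratan sulfate. Fibromodulin and lumican share a binding site on collagen. Osteoglycin (Ogn, also called mimecan) belongs to a further class. In the heart these genes are mostly made by fibroblasts and valve cells, and in bulk tissue fewer cells of a type and less RNA per cell cannot be told apart.

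In the RefSeq annotation of the rat genome most members lie beside each other. On chromosome 17 of assembly GRCr8 the genes Ogn, Omd and Aspn follow in this order on the same strand, with the related gene Ecm2 further along. Dcn and Lum are neighbours on chromosome 7, followed by the family genes Kera and Epyc. Prelp and Fmod lie on chromosome 13, beside the family gene Optc, and Bgn stands alone on chromosome X. RefSeq promoters of build GRCr8 matched 5 of the 8 members (Aspn, Omd, Ogn, Fmod and Lum), and the 250 bases before the start site are printed here for the chromosome 17 neighbours and for Fmod, because Fmod, Omd and Ogn shared the sign of their change in each pair, while Aspn, the third neighbour, differed from them in pair 3.
Aspn, chr17:15310470-15310719, minus strand: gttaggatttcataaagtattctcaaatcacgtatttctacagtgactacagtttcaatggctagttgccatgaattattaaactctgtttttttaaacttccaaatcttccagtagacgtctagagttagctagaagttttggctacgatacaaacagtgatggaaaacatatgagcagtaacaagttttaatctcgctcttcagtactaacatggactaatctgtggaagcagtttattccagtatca
Omd, chr17:15274871-15275120, minus strand: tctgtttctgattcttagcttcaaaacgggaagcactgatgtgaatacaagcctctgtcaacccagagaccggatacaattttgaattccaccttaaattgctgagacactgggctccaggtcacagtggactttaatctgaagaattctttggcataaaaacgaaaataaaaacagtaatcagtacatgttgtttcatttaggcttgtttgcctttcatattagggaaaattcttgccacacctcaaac
Ogn, chr17:15258996-15259245, minus strand: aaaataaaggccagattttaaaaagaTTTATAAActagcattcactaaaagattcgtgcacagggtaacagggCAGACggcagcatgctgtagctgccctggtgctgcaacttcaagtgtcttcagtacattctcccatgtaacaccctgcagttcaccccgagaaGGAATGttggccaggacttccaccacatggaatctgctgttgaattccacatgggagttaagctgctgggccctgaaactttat
Fmod, chr13:48045317-48045566, plus strand: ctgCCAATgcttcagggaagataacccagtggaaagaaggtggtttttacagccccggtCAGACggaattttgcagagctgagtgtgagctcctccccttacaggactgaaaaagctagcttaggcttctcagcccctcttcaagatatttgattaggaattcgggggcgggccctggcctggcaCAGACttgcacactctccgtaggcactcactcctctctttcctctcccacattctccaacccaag
Capitals mark matches on either strand to the TATA box (TATAAA), the CCAAT box (these letters themselves), the SMAD element spelled CAGAC, an AP-1 site with the letters TGANTCA and a TEAD site with the letters GGAATG. Fmod held 1 CCAAT box and 2 SMAD elements. Ogn held a TATA box on each strand, overlapping in 1 run of capitals at positions -224 to -217 from the start, a SMAD element, and a TEAD site at -84 to -79. In Aspn and Omd none of these letters occurred in the window. Among 27457 rat promoters of the same length, 13.1% held the TATA box, 34.3% the CCAAT box, 42.8% the SMAD element, 6.36% the AP-1 site and 11.8% the TEAD site. Of the printed windows, 98 bases of Aspn and 172 bases of Ogn lie inside the annotated gene, so other transcripts start further upstream.

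The arrays were alike in their overall signal. The median log2 signal ranged from 5.82 to 5.85, and between 62.6 and 63.8% of probe sets exceeded the level of 5. Of 13 markers of atrial cardiomyocytes 11 were measured, at log2 signals between 9.29 and 13.8, while Bmp10, also on this list, stayed below 5 on all 6 arrays. Con 3 stood apart in erythroid markers, with a mean deviation of 2.06 over 5 genes against -0.86 to -0.14 in the other arrays. Con 2 stood highest in macrophage markers (1.06, 14 genes), and RAP 2 was lowest in macrophage, mast cell and myofibroblast markers (-0.67, -1.13 and -0.94). RAP 2 was also lowest in fibroblast markers (-0.49) and in collagens and their partners (-0.97). Cell cycle markers (9 genes) were lowest in RAP 2 (-1.16) and highest in RAP 1 (1.13). All settings that leave out a single array have no block.

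The 8 members did not move in a common direction after RAP. Aspn rose and Prelp fell, by the study's thresholds of an unadjusted p under 0.05 and a fold above 1.3, applied to limma's paired fit. The other 6 did not pass: Fmod, Omd and Ogn had positive changes and Dcn, Bgn and Lum negative ones, each with wide intervals. Of all 11237 genes 2.94% rose and 3.45% fell, 6.39% in either direction, against 1 rise and 1 fall among the 8 members, a number too small to read against that share. The median change of the members was 0.12 and that of all genes -0.007, with 4 of the 8 members above 0. After adjustment over the 19907 probe sets kept, Aspn and Prelp both had an adjusted p = 0.76. With an adjusted p under 0.05 there were 0 probe sets by limma, which gave 1275 at an unadjusted p under 0.05, and 0 by the methods' paired t-test, which gave 1147. Only limma with array weights, in which pair 1 counted most, gave members an adjusted p under 0.05, among them Aspn and Prelp (0.037 each), along with 15.1% of all genes.

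**Figure D1:**
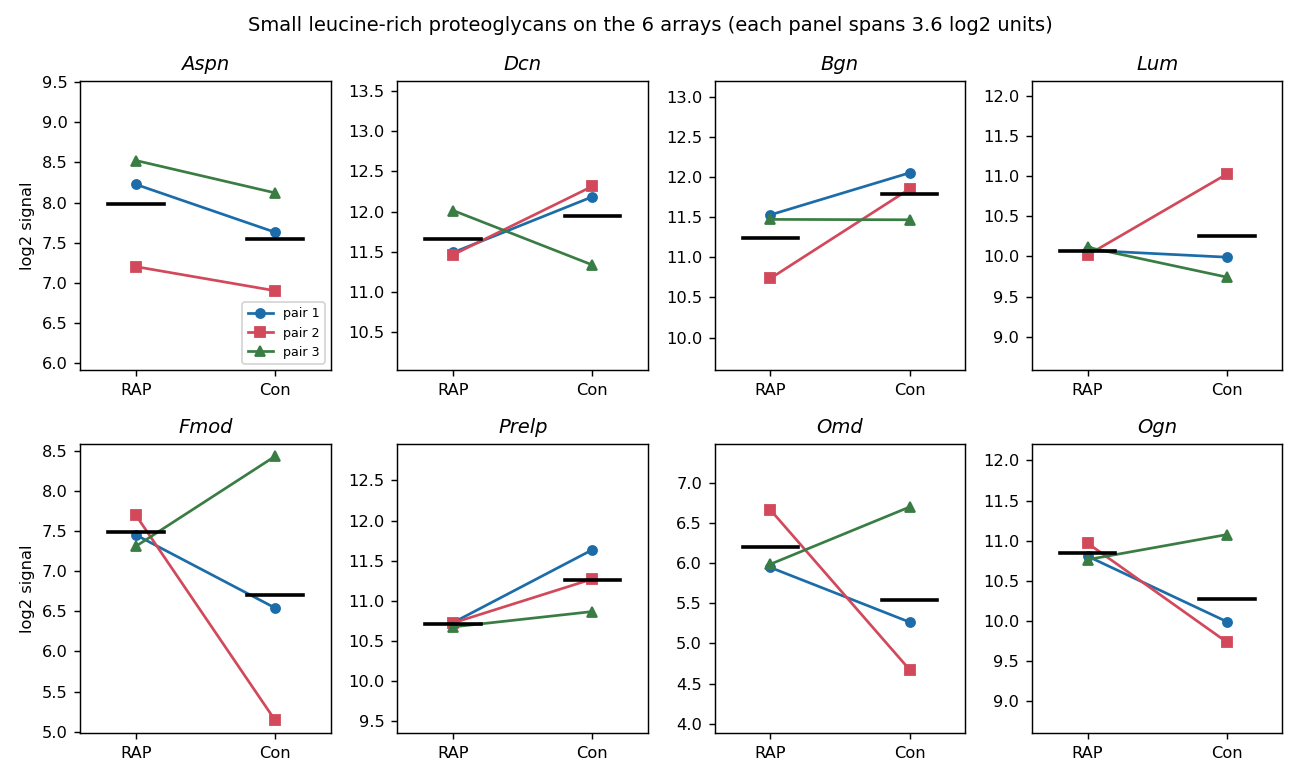
Log2 signal of the 8 members, with the RAP array at the left and the Con array at the right of each panel, lines connecting the 2 arrays of each pair and the group mean as a black bar. Every panel spans the same number of log2 units. The lines of Aspn run parallel and those of Prelp start from 3 nearly equal RAP values. Fmod, Omd, Ogn and Dcn (pair 3) and Lum (pair 2) have a pair that crosses the others.

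Aspn rose after RAP, by a similar amount in each pair. Its log2 signal was 8.23, 7.20 and 8.52 in RAP 1 to 3, against 7.63, 6.90 and 8.12 in Con 1 to 3. The groups overlapped, since RAP 2 lay below Con 1 and Con 3, but in each pair the RAP array was the higher one, by 0.60, 0.30 and 0.40. Its mean was 7.98 ± 0.69 with RAP and 7.55 ± 0.61 with control pacing (SD, n = 3 each). Among all genes 28.4% moved the same way in all 3 pairs. The paired fit gave Aspn a change of 0.43 (SE 0.14, 95% confidence interval 0.07 to 0.79), which is 1.35-fold. The call rests on the pairing: differences between the pairs, with pair 2 low on both arrays, exceeded the change, and without the pair as a block the same change had an SE of 0.42 (adjusted p = 0.76) and did not pass. The methods' paired t-test also passed it, and the fits without replicate 1 (0.35, SE 0.23) and without replicate 2 (0.50, SE 0.21) did not. Aspn did not pass in any of the 6 settings that left out a single array. These have no block, which alone ended the call, so they cannot show whether it depends on 1 array. Their changes also take in the differences between the pairs, at 0.11 without Con 2, 0.16 without RAP 3, 0.72 without Con 3 and 0.82 without RAP 2. Over all probe sets the 2 arrays of a pair deviated together in pair 1 (correlation 0.22) and not in pairs 2 and 3 (-0.24 and -0.32). The block that the call rests on comes from the design and from matched replicate numbers, and was not borne out by every pair.

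Prelp, a proline- and arginine-rich protein that anchors basement membranes to the matrix, fell after RAP. Its log2 signal was 10.73, 10.73 and 10.68 in RAP 1 to 3, against 11.64, 11.27 and 10.87 in Con 1 to 3. All 3 RAP arrays lay below all 3 Con arrays, the only member for which the groups did not overlap, as was the case for 15.4% of all genes. Its mean was 10.71 ± 0.03 with RAP and 11.26 ± 0.39 with control pacing (SD, n = 3 each). The change was -0.55 (SE 0.18, interval -1.03 to -0.07), 1.46-fold lower with RAP. The size differed among the pairs, at -0.91, -0.55 and -0.19, and the spread lay in the controls. Prelp also passed without the pair as a block (SE 0.20), and it did not pass by the methods' paired t-test (SE 0.21), without replicate 1 (-0.37, SE 0.24) or without replicate 2 (-0.55, SE 0.26). Leaving out a single array, with no block, ended the call in 5 of the 6 settings, with -0.36 without Con 1, and it passed without Con 3 (-0.74).

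Fmod, which controls the early assembly of collagen fibrils, varied more over the 6 arrays than any other member. Its log2 signal was 7.45, 7.69 and 7.31 in RAP 1 to 3, against 6.54, 5.14 and 8.43 in Con 1 to 3. The RAP arrays lay close together between control values that spanned 3.29 log2 units, with Con 2 lowest and Con 3 highest. The change was 0.91, 2.55 and -1.12 in pairs 1, 2 and 3, and the fit gave 0.78 (SE 0.70, interval -1.05 to 2.61, adjusted p = 0.82). Without Con 2 and with no block the change was -0.0012, and without Con 3 it was 1.64. Its SD over the 6 arrays, 1.14, exceeded that of 99.3% of genes.

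Omd, an acidic member known from bone and tooth matrix, had the same lowest and highest array as Fmod. It stood at 5.95, 6.66 and 5.99 in RAP 1 to 3, against 5.27, 4.67 and 6.70 in Con 1 to 3. Con 2 was again the lowest array, under the level of 5 at which signals become unsure in size, and Con 3 again the highest. The change was 0.68, 1.99 and -0.71 in the pairs, with a fitted value of 0.65 (SE 0.52, interval -0.71 to 2.01, adjusted p = 0.81). With no block it was 0.22 without Con 2 and 1.23 without Con 3.

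Ogn, which is found at collagen fibrils in vessels and heart, gave 10.81, 10.97 and 10.77 in RAP 1 to 3, against 9.99, 9.74 and 11.08 in Con 1 to 3. The RAP arrays differed from each other by 0.20 at most, while Con 1 and Con 2 lay below all of them and Con 3 above. Its changes of 0.81, 1.23 and -0.31 in pairs 1 to 3 gave a fitted value of 0.58 (SE 0.32, interval -0.27 to 1.42, adjusted p = 0.77). With no block it was 0.31 without Con 2 and 0.98 without Con 3. Fmod, Omd and Ogn thus shared the sign of the change in each pair, and their average was 0.80, 1.92 and -0.71 in pairs 1, 2 and 3. They were grouped after their values were seen, so this grouping carries no test.

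Dcn, the decoy and store of TGF-β in the matrix, was lower with RAP in 2 pairs and higher in the third. Its log2 signal was 11.49, 11.46 and 12.01 in RAP 1 to 3, against 12.19, 12.32 and 11.34 in Con 1 to 3. Con 3 was the lowest of the 6 arrays and RAP 3 stood near Con 1, so the groups overlapped. With -0.69, -0.85 and 0.68 in the pairs the fitted change was -0.29 (SE 0.34, interval -1.17 to 0.59, adjusted p = 0.85). With no block it was -0.10 without Con 2 and -0.59 without Con 3, where it passed.

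Bgn, a close relative of decorin that can also signal through Toll-like receptors when released, gave 11.53, 10.74 and 11.47 in RAP 1 to 3, against 12.05, 11.85 and 11.47 in Con 1 to 3. RAP 2 stood well below the other 5 arrays, and in pair 3 both arrays were level. The change was -0.52, -1.11 and 0.005 in the pairs and -0.54 in the fit (SE 0.24, interval -1.18 to 0.09, adjusted p = 0.76). Without RAP 2, and with no block, it was -0.29 (SE 0.20).

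Lum, which spaces collagen fibrils, differed on a single array. It stood at 10.08, 10.02 and 10.11 in RAP 1 to 3, against 9.99, 11.02 and 9.74 in Con 1 to 3. Con 2 lay above all of the other arrays, which fell between 9.74 and 10.11. The change was 0.09, -1.01 and 0.37 in the pairs and -0.18 in the fit (SE 0.30, interval -0.97 to 0.60, adjusted p = 0.90), and it had the opposite sign with Con 2 left out (0.20, SE 0.14).

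**Figure D2:**
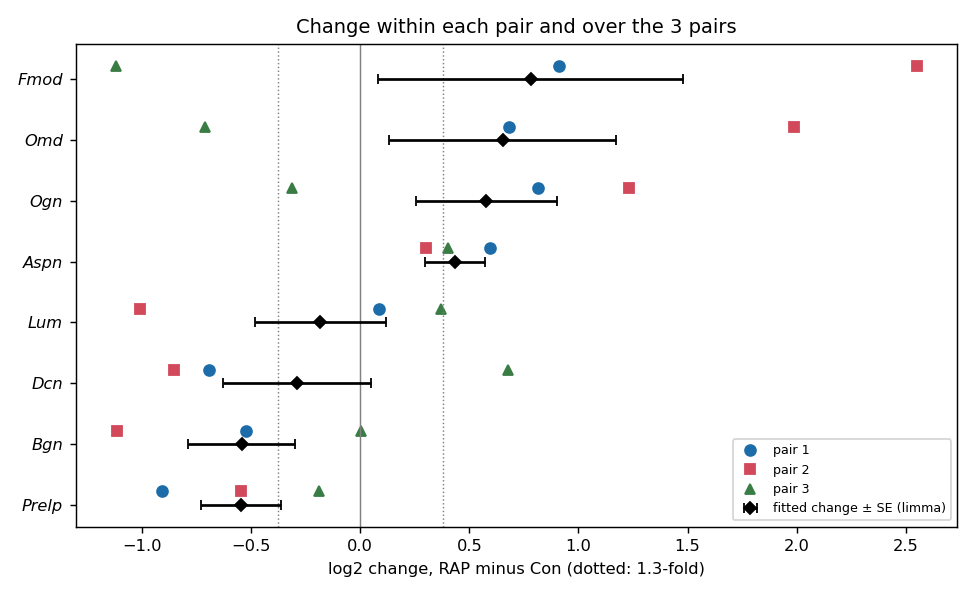
Log2 change (RAP minus Con) of the 8 members on the horizontal axis, with coloured symbols for pairs 1, 2 and 3 and black diamonds for limma's fitted change with its SE, and dotted lines at 1.3-fold. The 3 pairs of Aspn (0.30 to 0.60) lie closest together, and all pairs of Prelp lie below 0. Pair 3 (triangles) lies on the opposite side of 0 from pairs 1 and 2 in Fmod, Omd, Ogn and Dcn. In Bgn it lies almost at 0 (0.005).

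Leaving out pair 3 changed which members passed. Without replicate 3 the members past the thresholds were Aspn, Fmod, Ogn and Omd with rises (0.45, 1.73, 1.02 and 1.33) and Dcn, Bgn and Prelp with falls (-0.77, -0.82 and -0.73) by limma. In that setting 9.49% of all genes passed as higher and 12.7% as lower (22.1% in all, against 6.39% with all pairs), and the smallest adjusted p of a member was 0.168. The same 7 members passed with array weights, where 10.3% of genes were higher and 13.3% lower (23.6% in all). With only Con 3 left out and no block, the same genes passed apart from Aspn (0.72, SE 0.43), with 6.85% of all genes higher and 8.55% lower (15.4% in all). Con 3 is the array with high erythroid markers, and the part of that in the members' values was not tested. Without replicate 2 no member passed, with 1.46% of genes higher and 1.9% lower (3.36% in all), and the change was -0.11 for Fmod and -0.02 for Omd. Without replicate 1 no member passed either, with 0.516% of genes higher and 0.943% lower (1.46% in all). The methods' paired t-test passed Aspn alone, with 1.06% of genes higher and 1.02% lower (2.08% in all), and the fit without the block passed Prelp alone, with 3.62% higher and 4.12% lower (7.74% in all).

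The spread lay mostly in the control arrays. In 6 of the 8 members the SD among the Con arrays exceeded that among the RAP arrays, the exceptions being Aspn and Bgn, while over all genes this was so in 45.7%. For Lum the SD was 0.05 with RAP and 0.68 with control pacing, for Ogn 0.11 and 0.71, and for Fmod 0.19 and 1.65. All members varied more over the 6 arrays than the median gene, whose SD was 0.21, with SDs between 0.39 (Prelp) and 1.14 (Fmod).

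Set against its relatives within each pair, the signed change of Aspn lay above those of Prelp, Bgn and Lum in all 3 pairs and below those of Fmod, Omd and Ogn in pairs 1 and 2. The difference of the log2 changes, Aspn minus Prelp, was 1.50, 0.85 and 0.59 in pairs 1 to 3 (mean 0.98 ± 0.47, SD). Aspn minus Bgn was 1.12, 1.41 and 0.40 (mean 0.98 ± 0.52). Against Lum the values were 0.51, 1.31 and 0.03, and against Dcn 1.29, 1.15 and -0.27. Against Fmod they were -0.31, -2.25 and 1.52, against Omd -0.08, -1.69 and 1.12, and against Ogn -0.22, -0.93 and 0.71. The exact two-sided sign-flip permutation test over 3 pairs cannot give a p under 0.25, which it gave for Prelp, Bgn and Lum (0.58 after adjustment over the 7 differences, 3 of 3 pairs positive in each), and it gave 0.50 for Dcn and 0.75 for Fmod, Omd and Ogn. Over the mean of the 7 relatives the difference was 0.54, -0.02 and 0.59, with a mean of 0.37 ± 0.34 (SD over 3 pairs). Since this test could not pass 0.05 whatever the values, it says nothing for or against a difference.

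**Figure D3:**
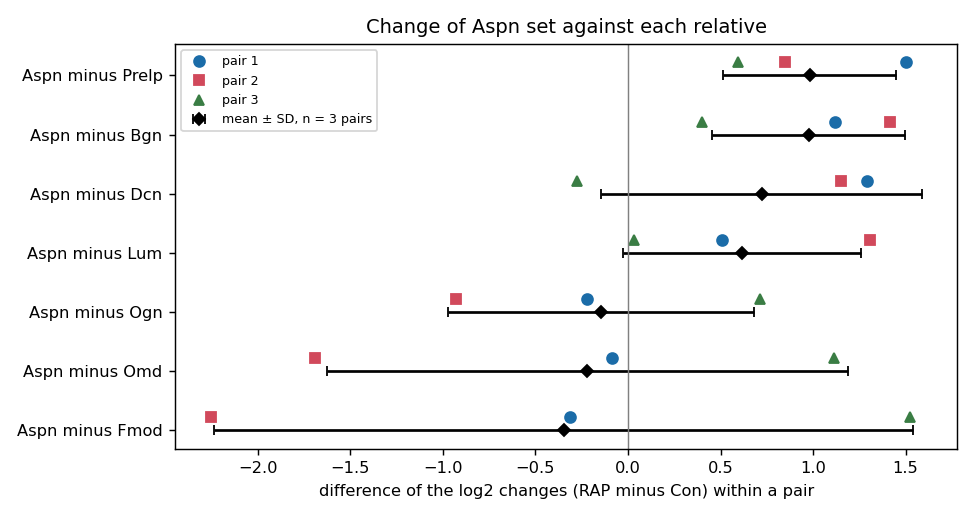
Log2 change (RAP minus Con) of Aspn minus that of each relative within a pair, on the horizontal axis, with coloured symbols for the 3 pairs and black diamonds for the mean with its SD over 3 pairs. The values against Prelp, Bgn and Lum are above 0 in each pair, and those against Dcn, Ogn, Omd and Fmod lie on both sides of 0.

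The members' profiles over the 6 arrays differed, measured as the root mean square difference between the arrays' deviations from each gene's mean. This measure counts the size of the deviations as well as their shape. Omd was the third nearest of 11236 genes to Fmod (0.40 log2 units), and Ogn the sixth nearest to Omd (0.27). Ogn and Fmod were further apart by this measure (0.58), with Ogn at rank 15 from Fmod and Fmod at rank 7053 from Ogn. Both were lowest in Con 2 and highest in Con 3, but Fmod varied more (SD 1.14 against 0.55). By the same measure Ogn lay nearer to Aspn (0.50), which was highest in RAP 3. Dcn had Prelp (0.30), Lum and Bgn (0.31 each) as its nearest members, at ranks 1466 to 1934. The relative nearest to Aspn was its chromosome 17 neighbour Ogn at 0.50, rank 1112, and its other neighbour Omd stood at 0.70, rank 9039. The neighbours Prelp and Fmod were further apart still (1.29). The 5 genes nearest to Aspn were Nrg1, the growth factor neuregulin, and Aldh1a3, an enzyme of retinoic acid synthesis (both 0.18), Ccn2, the connective tissue growth factor (0.26), the chemokine Ccl24 (0.27) and the fibroblast growth factor Fgf9 (0.28). The mean profile of the 7 relatives, in which opposite shapes cancel, was nearly flat and was nearest to Nudt12, Supt20h, Ano4, Cryzl1 and Lnpk (0.02 to 0.05). These profiles also share the pacing groups, so likeness over 6 arrays is a description.

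**Figure D4:**
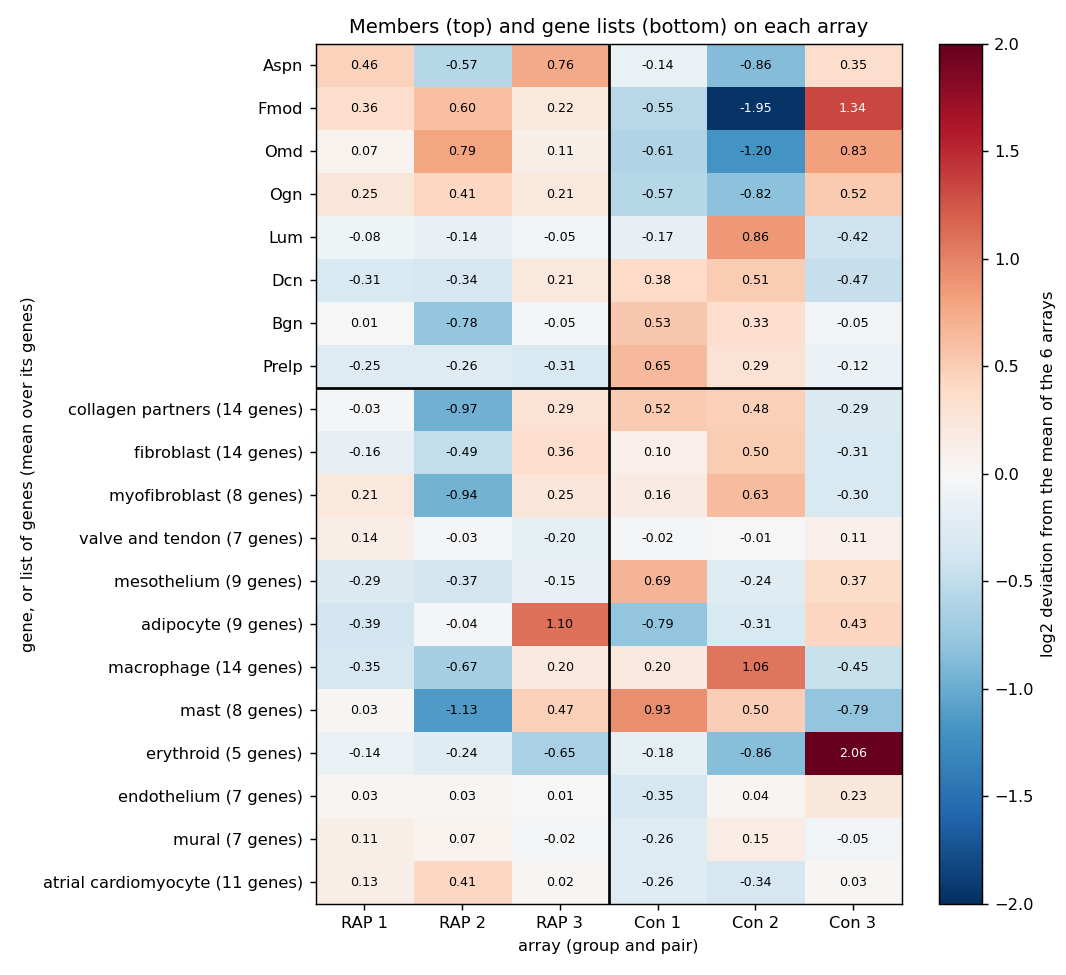
Log2 deviation of each array from the mean of the 6 arrays, for the 8 members (above the line) and, as the mean over the genes named, for collagens and their partners and for cell type markers (below the line), with RAP arrays at the left and Con arrays at the right. Fmod, Omd and Ogn are lowest in Con 2 and highest in Con 3, macrophage markers are highest in Con 2 (1.06) and erythroid markers in Con 3 (2.06).

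Markers of several other cell types moved with members on single arrays. The median change of markers kept the same sign in all 3 pairs for adipocytes, atrial cardiomyocytes and mesothelium. Adipocyte markers (9 of 10 measured, 4 rose and 0 fell, 8 of 9 higher) had median changes of 0.29, 0.41 and 0.85 in pairs 1 to 3, with summed signals of 2814 to 5282 with RAP and 2360 to 3948 with control pacing. They were highest in RAP 3 (mean deviation 1.10), which was also the highest array of Aspn. In RAP 1 the 2 differed, with a mean deviation of -0.39 for adipocyte markers and a deviation of 0.46 for Aspn. Fibroblast markers were measured in 14 of 15 genes, of which 0 rose and 1 fell. Their summed signals on the linear scale were 12239 to 19100 with RAP and 12466 to 18792 with control pacing. Mean deviations were highest in Con 2 (0.50) and RAP 3 (0.36) and lowest in RAP 2 (-0.49), the lowest array of Bgn. Dcn was highest in Con 2 and stood in RAP 3 below Con 2 and Con 1 only. Macrophage markers (14 of 14, 0 rose and 1 fell, 0 of 14 higher) had sums of 5348 to 10398 with RAP and 6098 to 18218 with control pacing. They were highest in Con 2, the array with the highest Lum and Dcn and the lowest Fmod, Omd, Ogn and Aspn. Erythroid markers, like Fmod, Omd and Ogn, were lowest in Con 2 (-0.86) and highest in Con 3 (2.06). Markers of valve and tendon cells, other sources of these proteoglycans, were measured in 7 of 12 genes, with sums of 401 to 503 with RAP and 448 to 520 with control pacing. Their mean deviation ranged from -0.20 to 0.14 over the 6 arrays, and Tnmd (tenomodulin) and Kera (keratocan) were below the level of 5 on every array. Atrial cardiomyocyte markers (11 of 13, 4 rose and 0 fell, 11 of 11 higher) had median changes of 0.46, 0.79 and 0.02 in pairs 1 to 3. Their mean deviations were 0.02 to 0.41 in RAP and -0.34 to 0.03 in Con arrays, with sums of 65504 to 81401 with RAP and 56907 to 67585 with control pacing. Mesothelial markers (9 of 12, 0 rose and 3 fell, 3 of 9 higher) had median changes of -0.96, -0.65 and -0.45 in pairs 1 to 3. Their sums were 5252 to 6284 with RAP and 6312 to 10519 with control pacing. Mesothelial markers were highest in Con 1 (mean deviation 0.69), the array with the highest Prelp and Bgn. Mast cell markers (0.93) and collagens with their partners (0.52) were highest in Con 1 too. The part of cell composition in the members' values was not tested.

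Other genes around the family were taken from 7 lists with 107 measured genes, of which 4 rose and 10 fell (13.1% in either direction, against 6.39% of all genes), with a median change of -0.18. Of 10 further family genes 5 were measured and none passed. Among these Tsku, a secreted relative known as tsukushi, had the widest changes, -1.31, -2.57 and 0.76 in the pairs (-1.04, SE 0.64), and Epyc, beside Dcn and Lum, had 0.53 (SE 0.27), both named after their values were seen. Of 20 measured genes for building chondroitin and dermatan sulfate chains 0 rose and 2 fell. These were Xylt2, which adds the first sugar of the chain (6.93, 6.96 and 6.67 in RAP 1 to 3, against 7.30, 7.44 and 6.98 in Con 1 to 3, change -0.39, SE 0.13), and the sulfotransferase Chst12 (-0.56, SE 0.20). Of 11 genes for keratan and tyrosine sulfation 1 fell, the galactosyltransferase B4galt1 (-0.81, SE 0.27), which also acts on other glycans.

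The collagens and other fibril partners that the proteoglycans bind did not pass in any of 14 measured genes, with a median change of -0.50 and 1 of 14 above 0. Col1a1, the main fibrillar collagen chain, gave 11.73, 10.51 and 12.10 in RAP 1 to 3, against 12.73, 12.57 and 11.45 in Con 1 to 3. As in Dcn, the change was negative in pairs 1 and 2 and positive in pair 3 (-0.999, -2.06 and 0.65, fitted -0.80, SE 0.53). Col3a1 followed at -0.53 (SE 0.39).

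Of 24 growth factors and receptors that family members bind, 2 rose and 3 fell. The rises were Tgfb2, a TGF-β ligand (0.49, SE 0.14), and Ccn2, a partner of decorin (0.56, SE 0.21), which was also among the genes nearest to Aspn. The falls were Egfr and Met, receptor tyrosine kinases that decorin binds (-0.9996, SE 0.27, and -0.82, SE 0.23), and Tlr4, a receptor for released biglycan (-0.72, SE 0.21). Tlr4 was 6.93, 6.56 and 7.16 in RAP 1 to 3, against 7.64, 7.74 and 7.41 in Con 1 to 3. The groups did not overlap, as was the case for 15.4% of all genes. Tgfb1 did not pass (-0.40, SE 0.28). Mesothelial markers and the signals of Egfr and Met were all highest in Con 1, and the part of mesothelium in these falls was not tested.

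Among 12 measured proteases and helpers that process or cleave the family, 1 rose and 2 fell. Htra1, a serine protease that cleaves decorin, biglycan and fibromodulin, was 9.85, 9.47 and 10.13 in RAP 1 to 3, against 11.29, 11.03 and 10.17 in Con 1 to 3 (-1.02, SE 0.34). Pcolce, an enhancer of procollagen processing, changed by -0.83 (SE 0.28), and the granzyme Gzmb by 0.42 (SE 0.15). Bmp1, the metalloproteinase that removes the propeptide of biglycan, did not pass (-0.71, SE 0.35), with -0.88, -1.47 and 0.23 in the pairs.

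Proteoglycans outside the family gave 1 rise and 2 falls among 21 measured genes, with a median of -0.01. Prg4, the lubricant proteoglycan of serous surfaces, was 8.63, 8.01 and 6.9998 in RAP 1 to 3, against 10.25, 10.17 and 9.83 in Con 1 to 3. It is also 1 of the mesothelial markers. The cell surface heparan sulfate proteoglycan Sdc4 changed by -0.79 (SE 0.23), and Cspg4, of mural cells, by 0.45 (SE 0.14).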

How the data were processed

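Left atrial RNA of 6 rats was hybridized to GeneChip Rat Gene ST arrays. The authors deposited log2 signals per probe set, which they had computed by robust multiarray averaging (RMA, Partek Genomics Suite), a method that corrects background, sets arrays to common quantiles and summarizes probes. The software version is not given in the sources used here. The values were used as deposited. Symbols came from the array annotation (15310 of 29214 probe sets carry 1 symbol, 323 several and 13581 none), and a gene is its probe set with the highest mean. Probe sets above a log2 signal of 5 in at least 1 array were kept (19907, or 11237 genes). RAP and Con were compared over all of them with limma 3.58.1 in R 4.3.3, with the pair as a block (2 residual and 2.76 prior degrees of freedom) and Benjamini-Hochberg adjustment. A gene passed, as in the methods, at p under 0.05 before adjustment together with more than 1.3-fold. The fit was tested on simulated data that had no pair effect and planted changes larger than those of Aspn and Prelp. That test therefore does not bear on their calls. The number of arrays limits the precision.

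The methods state that the rats were paired. Sample titles number the replicates without naming a pair, and equal replicate numbers were taken as a pair. As a check, the deviations of the 2 arrays of a pair from their group means were correlated at 0.22, -0.24 and -0.32 over probe sets in pairs 1 to 3, so paired arrays were not more alike in pairs 2 and 3. The study, by contrast, reports that paired arrays were clearly alike in a principal component analysis, which is another measure and is not shown there.

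Members and gene lists were chosen with earlier results of these data known. Named are the members, the 5 genes nearest to Aspn and to the relatives' mean, the largest changes past the thresholds in each list (up to 4), and Tgfb1, Tgfb2, Col1a1, Col3a1, Bmp1 and Tlr4. Alternatives were no block, the methods' paired t-test, trend with robust moderation, array weights, other filters, other scalings, probe set means, and leaving out pairs or arrays. Sequences are from RefSeq (GRCr8).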

Additional observations from a re-analysis of the deposited data

How the results depend on the processing

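Aspn kept its direction in all 19 alternatives and passed in 10, and Prelp kept its direction in all 19 and passed in 11. Both passed under all 3 other scalings, both other filters, probe set means and robust moderation. Without the replicate block (the pair as a block) Aspn had the same change, 0.43, and did not pass (adjusted p = 0.76). The count of members with a rise was then 0, with 870 genes past the thresholds in place of 718. Members with a fall numbered 0 by the methods' paired t-test, which gave 119 genes with a rise and 115 with a fall, and 2 and 2 genes of the 7 pathway lists. With array weights, which gave pair 1 a weight of 4.91, pair 2 of 0.623 and pair 3 of 0.327, 4 members rose and 3 fell, with 1161 and 1489 genes and 11 and 35 genes of the lists. The stricter filter dropped Omd, and the members' median was then -0.18. Leaving out 1 pair or 1 array gave 0 to 4 members with a rise and 0 to 3 with a fall, 58 to 1066 and 106 to 1422 genes, and 0 to 7 and 2 to 39 genes of the lists. In these settings the change of Aspn ranged from 0.11 (without Con 2) to 0.82 (without RAP 2). Aspn minus the relatives' mean ranged from 0.11 to 0.76 and the members' median from -0.02 to 0.14. The settings without a single array have no block, so for the call of Aspn they cannot show dependence on 1 array. The sign turned in Lum (-0.46 to 0.23), Fmod (-0.11 to 1.73) and Omd (-0.0158 to 1.33), without replicate 2 and, for Lum and Fmod, without Con 2 alone (0.20 and -0.0012). The cause was not tested. Signals near the level of 5, as in Omd on Con 2, limit the size of its change.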

Other observations

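The genes with profiles nearest to Ogn, Omd, Fmod and Lum over the 6 arrays lie outside the rule for named genes and were chosen after their values were seen. Nearest to Ogn were Fhl2, a LIM domain protein of the sarcomere (root mean square difference 0.12 log2 units, change 0.46), Eno3, the muscle enolase (0.12, change 0.74), Clec3a (0.12), Pdlim3, a Z-disc protein (0.14, change 0.60), and Coro6 (0.15). Nearest to Omd were Lrrc2 (0.12), Scn7a (0.21), Ptgds (0.23), Eno3 (0.25) and Cavin4, a caveolar protein of muscle (0.26). Fmod had Gpm6a, from the list of mesothelial markers (0.36), Scg5 (0.39), Omd (0.40), Prph (0.42) and Ptgds (0.43) nearest to it. None of these passed the thresholds. Nearest to Lum were Nos2 (0.04), the inducible nitric oxide synthase, Cd4 (0.09), Myo7a (0.09), Pgf (0.10) and Pcdh17 (0.11). No explanation was tested.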
